A study of Mus musculus with 24 samples.

Results

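The genes described here encode cadherins of the switch between epithelial and non-epithelial cells, together with epithelial adhesion and tight junction proteins and the intermediate filament protein vimentin. They were taken by name from the RNAseq tables: Cdh1, Cdh2, Cdh3, Cdh4, Cdh6, Cdh11, Epcam, Cldn6, Cldn7 and Vim, 10 of 21909 gene symbols, and all 10 were found. The study compared mouse embryonic stem cells (ESCs) with neural progenitor cells (NPCs) and mapped the nucleolus-associated domains (NADs) of their genomes by Nucleolar-DamID. Of its 24 samples, 6 were RNAseq samples, 3 of ESCs and 3 of NPCs, each from a separate culture dish. The ESCs were of the E14 line and grew without feeder cells on gelatin in 2i medium, with 1000 U/ml of leukemia inhibitory factor, the GSK3β inhibitor CHIR99021 at 3 µM and the MEK inhibitor PD0325901 at 1 µM. The NPCs were derived from E14 cells in suspension over 8 days, with 2 µM retinoic acid during the last 4 days, so the groups differ in medium, inhibitors and attachment as well as in cell type. All samples came from a single cell line, and cell type and any batch of library preparation cannot be told apart. Depth was estimated at 34.0, 33.7 and 30.8 M reads for ESC replicates 1, 2 and 3, and at 30.1, 27.3 and 32.3 M reads for the NPC replicates.

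Classical cadherins are transmembrane proteins that hold neighbouring cells together by calcium-dependent binding, mostly between like cadherins, and their cytoplasmic tails bind catenins that link them to actin. E-cadherin, the product of Cdh1, is the main cadherin of epithelia and of pluripotent cells. N-cadherin, the product of Cdh2, takes its place in the early neural plate and in many mesenchymal cells, and this exchange is known as the cadherin switch. In epithelia, claudins seal tight junctions and EpCAM is a widely used surface marker, whereas vimentin filaments are typical of mesenchymal cells and of neural progenitors.

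The deposited values were reads per kilobase and per mega (M) of reads (RPKM), and the length behind them was the whole gene from its start to its end, introns included. Genes with long introns therefore received low RPKM values, and Cdh2, Cdh3, Cdh4 and Cdh6 stayed under the minimum of 1 RPKM in at least 3 samples that the test required. For this reason each gene was also given in reads per M reads (RPM), that is RPKM multiplied by the annotated gene length in kilobases, with a minimum of 1 RPM in at least 3 samples, a scale chosen after seeing the data. Levels of different genes were compared per kilobase of annotated exon (exon RPKM). Differences are NPC minus ESC from limma with Benjamini-Hochberg adjustment over all genes tested, on log2(RPKM + 1) or log2(RPM + 1), which understates the change of low genes, and a gene was called at an adjusted p under 0.05.

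ESC replicate 3 stood apart from the other ESC samples. Against the other ESC replicates, its log2 RPM values lay 0.39 higher at the median among genes with 168 to 2574 bp of exon and 0.67 lower among genes with at least 7762 bp, and the NPC replicates showed no such trend (medians within 0.03 of the other replicates in every class of exon length). Across genes, its Pearson correlation with ESC replicates 1 and 2 was 0.969 and 0.971, against 0.999 between those replicates. Whether RNA quality or another property of the library lies behind this was not tested. Differences of the 10 genes are given with and without this sample, and other values include it unless stated. Of the other genes whose difference is given, only Fn1 changed its call without it. Most genes were called in the fits without this sample, 87.9% on the RPKM scale and 89.2% on the RPM scale. The median difference of the 13422 genes tested on the RPM scale was 0.32, so those of Cdh1, Cdh3, Epcam, Cldn7 and Vim on it are also given relative to that median. Among the 7835 genes tested on the RPKM scale the median was 0.02.

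Cdh1 was the most abundant of these genes in ESCs and was 26.5 times lower in NPCs, whereas the other 5 cadherins were higher in NPCs, from 1.46 times for Cdh3 to 3244 times for Cdh11 in mean RPM. Epcam was lower in NPCs, Cldn6 was about 3 times higher, and Cldn7 and Vim did not pass the test with all 6 samples. On the RPM scale 10 of 10 genes were tested and 8 were called, 6 higher and 2 lower in NPCs. The background was high, since 73.9% of the 13422 genes tested on this scale were called, 45.4% higher and 28.5% lower. On the deposited RPKM scale 6 of the 10 were tested and 4 called, with Cdh11 and Cldn6 higher and Cdh1 and Epcam lower, against 70.2% of 7835 genes, 36.9% higher and 33.3% lower. Without ESC replicate 3, Cldn7 and Vim joined the genes called higher, but that fit called 87.9% of the 7835 genes, 3437 higher and 3447 lower. Calls were thus frequent among all genes, and a gene detected in NPCs alone could enter the test only by being high there. The split of all calls depended on scaling: 52.6% of the RPKM calls were higher in NPCs, against 42.1% after scaling by median ratios and 69.0% after rescaling all samples to the same sum, and on the RPM scale 61.4%, against 45.8% after quantile normalization.

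Cdh1, which encodes E-cadherin, measured 893, 932 and 530.4 RPM in ESC replicates 1, 2 and 3 and 31.9, 28.3 and 28.6 RPM in NPC replicates 1, 2 and 3. Every ESC sample lay far above every NPC sample, and ESC replicate 3 was the lowest of the ESCs, while the NPC replicates were close to each other. The means were 785 ± 221 and 29.6 ± 1.99 RPM (SD, n = 3 each), 26.5-fold higher in ESCs, or 30.8-fold without ESC replicate 3. The difference was -4.64 ± 0.23 (SE; adjusted p = 2.70e-06) on the log2(RPM + 1) scale, -4.96 relative to the median of all genes and -4.90 without ESC replicate 3, and -3.11 ± 0.20 (SE; adjusted p = 1.67e-05) on the log2(RPKM + 1) scale. Cdh1 was not lost from NPCs: 962, 772 and 924 estimated reads remained in the NPC samples. In these bulk samples, fewer cells with E-cadherin and less Cdh1 RNA per cell cannot be told apart.

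Cdh3 encodes P-cadherin, a second cadherin of epithelia, and is the neighbour of Cdh1 on chromosome 8. It stood at 25.1, 23.7 and 17.2 RPM in the ESC replicates and at 30.5, 30.6 and 35.3 RPM in the NPC replicates. The NPC samples were all above the ESC samples, by a small margin, so Cdh3 did not follow the fall of its neighbour. The means differed 1.46-fold, or 1.32-fold without ESC replicate 3, and the difference was 0.54 ± 0.17 (SE; adjusted p = 0.0224) on the log2(RPM + 1) scale, only 0.22 above the median of all genes. This call was not stable: it was lost after scaling by median ratios (0.26), after quantile normalization (0.10), when replicate number was used as a block, and when any of the NPC replicates was left out (0.47 to 0.58).

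N-cadherin showed the opposite pattern to E-cadherin. Cdh2 measured 2.14, 1.96 and 1.36 RPM in ESC replicates 1, 2 and 3 and 195, 152 and 151 RPM in NPC replicates 1, 2 and 3. The groups were far apart, NPC replicate 1 was the highest, and the ESC values rested on 73, 66 and 42 estimated reads. The mean was 91.1-fold higher in NPCs, and on summed reads the ratio was 90.4 with an exact 95% interval of 78.1 to 105, which covers counting error only. The difference was 5.89 ± 0.16 (SE; adjusted p = 1.89e-07) on the log2(RPM + 1) scale and 5.76 without ESC replicate 3. In deposited RPKM the NPC values of Cdh2 were 0.885, 0.689 and 0.686, which kept this 220370 bp gene under the minimum for the planned test.

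The balance between both cadherins turned over between the cell types. Per kilobase of exon, the log2 ratio of Cdh2 to Cdh1 was -9.52, -9.71 and -9.42 for the ESC replicates in their order and 1.79, 1.60 and 1.58 for the NPC replicates. Cdh1 therefore exceeded Cdh2 by 685 to 840.1 times in every ESC sample, and Cdh2 exceeded Cdh1 by 3.00 to 3.46 times in every NPC sample. ESC replicate 3 did not stand apart in this ratio. The planned ratio of deposited RPKM with 1 RPKM added to each gene gave the same sides, with -3.83, -3.89 and -3.15 in ESCs and 0.35, 0.25 and 0.24 in NPCs, smaller in size in every sample. In this planned ratio ESC replicate 3 did stand apart from the other ESC replicates.

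The other cadherins of the list belong to neural and mesenchymal tissues. Cdh11, which encodes a cadherin typical of mesenchyme and bone-forming cells, measured 0.117, 0.178 and 0.0650 RPM in ESCs and 404, 394 and 371 RPM in NPCs. The ESC values stood for 4, 6 and 2 estimated reads, so the gene was close to undetected in ESCs and among the more abundant of the 10 genes in every NPC sample. On summed reads it was 3196 times higher in NPCs, with an exact 95% counting interval of 1829 to 6185. The difference was 8.45 ± 0.10 (SE; adjusted p = 5.38e-08) on the log2(RPM + 1) scale, the largest of the 10 genes, 8.41 without ESC replicate 3, and 1.82 ± 0.04 (SE; adjusted p = 1.97e-07) on the log2(RPKM + 1) scale, or 4.71 with 0.1 added in place of 1. Cdh6, a cadherin first studied in kidney and also found in the neural tube and neural crest, had 1, 3 and 0 estimated reads in the ESC replicates and 737, 525 and 713 in the NPC replicates. It was thus barely detected in ESCs and moderate in all NPC samples, at 24.4, 19.3 and 22.1 RPM. The ratio on summed reads was 542 (exact 95% counting interval 212 to 1993) and the difference 4.46 ± 0.11 (SE; adjusted p = 1.25e-07) on the log2(RPM + 1) scale, 4.43 without ESC replicate 3, or 7.35 with 0.1 added in place of 1. Cdh11 and Cdh6 met the minimum for testing only through the NPC samples, so a call on either could only be a rise.

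Cdh4 encodes R-cadherin, which is known from retina and brain. Its values were 2.64, 3.35 and 0.942 RPM in ESC replicates 1, 2 and 3 and 6.87, 6.97 and 8.39 RPM in the NPC replicates. All NPC samples were above all ESC samples, ESC replicate 3 was the lowest at 29 estimated reads, and the gene stayed low in both cell types. The difference was 1.42 ± 0.29 (SE; adjusted p = 0.00413) on the log2(RPM + 1) scale and 1.07 without ESC replicate 3. After quantile normalization it was 0.27 and no longer called.

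**Figure D1:**
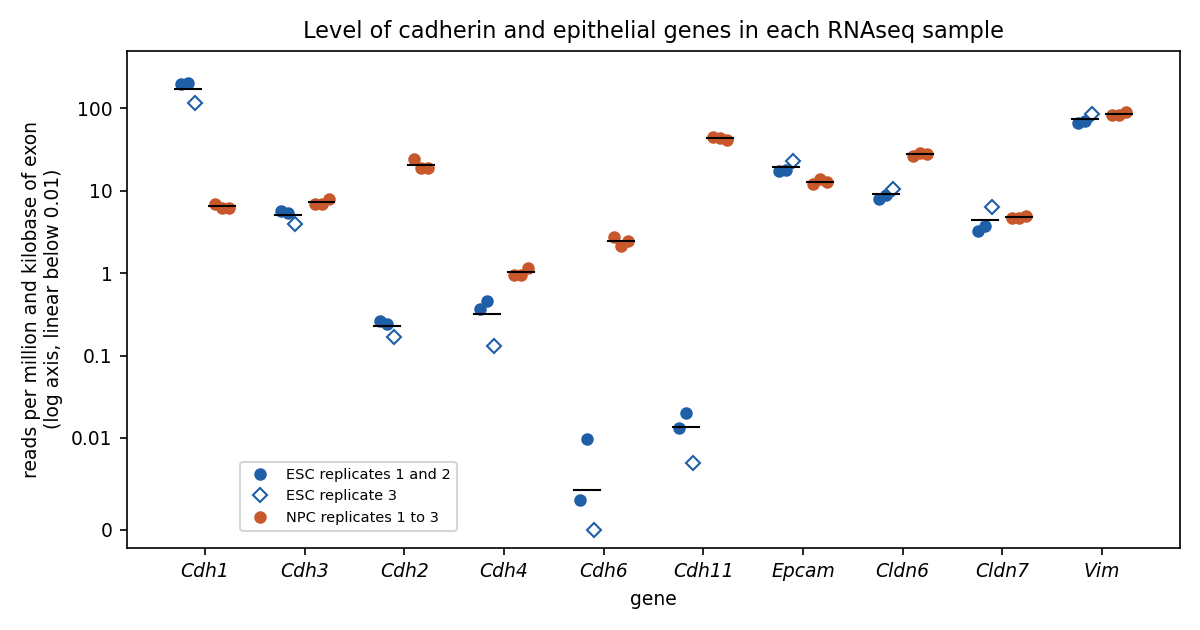
Level of each of the 10 genes in reads per kilobase of annotated exon and M reads, on a log axis that is linear below 0.01. Each point is 1 RNAseq sample, open diamonds are ESC replicate 3 and black lines are means of 3 samples; Cdh1 was the highest gene in ESCs at 172 ± 48.4 and Vim in NPCs at 85.5 ± 5.19 (SD).

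The composition of the cadherin pool differed between the cell types. In a list of 18 classical cadherins, Cdh1 made up 95.3, 95.5 and 95.1% of the summed exon RPKM in the ESC replicates in their order, and 6.25, 6.07 and 6.22% in the NPC replicates. ESCs thus carried almost a single cadherin, with Cdh3 (2.85% ± 0.343, SD, n = 3) and Cdh24 (1.42% ± 0.169) as the next. In NPCs, Cdh11 held 40.6, 43.4 and 41.5% and Cdh2 21.6, 18.5 and 18.6%, so that Cdh11 and not Cdh2 was the leading cadherin in each NPC sample. Cdh5, the vascular endothelial cadherin, came next with 10.7% ± 1.15, followed by Cdh3 (7.03% ± 0.894) and Cdh1 (6.18% ± 0.0937); Cdh5 and Cdh24 were singled out after their values were seen. The summed level of the 18 cadherins was 205, 213 and 122 exon RPKM in the ESC replicates and 112, 102 and 101 in the NPC replicates, and ESC replicate 3 was closer to the NPCs than to the other ESCs in this sum. The shares in deposited RPKM, which favour short genes, kept Cdh1 first in ESCs and Cdh11 first in NPCs, with Cdh24 in place of Cdh2 as the second in NPCs.

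**Figure D2:**
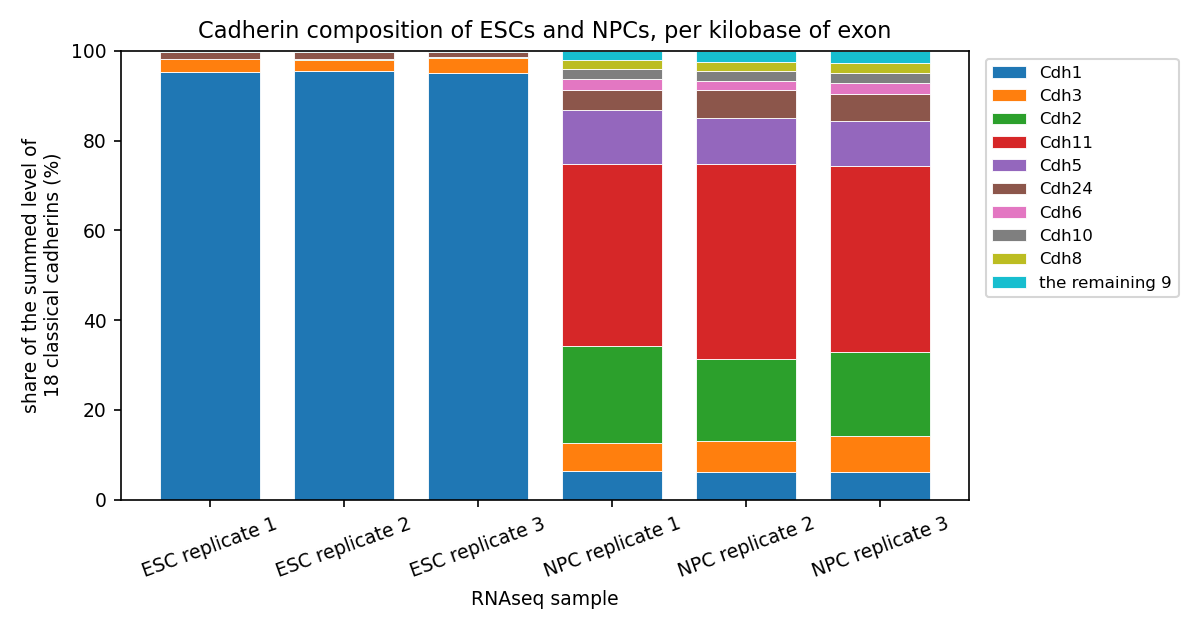
Share of each classical cadherin in the summed level of 18 classical cadherins (percent of exon RPKM), stacked for each of the 6 RNAseq samples. Cdh1 fills over 95% of every ESC bar, and Cdh11 and Cdh2 together fill over 60% of every NPC bar.

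Of the 18 classical cadherins, 11 were tested on the RPM scale, 10 were higher in NPCs (90.9%, against 45.4% of all genes) and 1, Cdh1, was lower (9.09%, against 28.5%), with a median difference of 4.09 against 0.32 for all genes tested. Cadherins absent from ESCs could be tested only through NPCs, so this count favours rises. After quantile normalization 7 were higher, where 4653 of all 13422 genes were, and after scaling by median ratios 9, where 5316 were. With a replicate block or without any of the NPC replicates 9 were also higher. Without a filter 13 were higher, where 7403 of 18158 genes were. On the RPKM scale 3 were tested, Cdh11 and Cdh24 rose, by 1.82 and 0.68 (adjusted p = 0.00549), and Cdh1 fell, where 36.9% of all genes were higher and 33.3% lower. The 7 others stayed under the minimum on the RPM scale, with at most 21 estimated reads in any sample. Cdh8, a cadherin of developing neurons that was chosen after its values were seen, was listed at 0 in all ESC samples and had 500, 422 and 518 estimated reads in the NPC replicates.

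Ordered by exon RPKM (mean ± SD, n = 3), ESCs were led by Cdh1 (172 ± 48.4), Vim (74.2 ± 10.5) and Epcam (19.3 ± 2.92), followed by Cldn6 (9.11 ± 1.26), Cdh3 (5.02 ± 0.967) and Cldn7 (4.44 ± 1.71). The values of Cdh3 and Cldn7 overlapped between samples and their order is not resolved. The remaining cadherins were at or under 0.462 exon RPKM in every ESC sample, and neither Cdh4 and Cdh2 nor Cdh11 and Cdh6 were separated. In NPCs the order was Vim (85.5 ± 5.19), Cdh11 (43.8 ± 1.85), Cldn6 (27.9 ± 1.24), Cdh2 (20.6 ± 3.11) and Epcam (12.9 ± 0.905), then Cdh3 (7.33 ± 0.619), Cdh1 (6.47 ± 0.436), Cldn7 (4.77 ± 0.159), Cdh6 (2.43 ± 0.288) and Cdh4 (1.02 ± 0.117). Only Cdh3 and Cdh1 overlapped between neighbours in that order. Cdh1 moved from rank 1 in ESCs to rank 7 in NPCs, and Cdh11 from rank 9 to rank 2.

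Among the epithelial genes, Epcam encodes a surface glycoprotein of epithelia and pluripotent cells. It measured 38.1, 39.3 and 49.8 RPM in ESC replicates 1, 2 and 3 and 26.4, 30.3 and 27.9 RPM in NPC replicates 1, 2 and 3. The groups did not overlap, but all NPC samples kept a level not far below that of ESC replicates 1 and 2, in contrast to the fall of Cdh1. The NPC mean was 0.666 of the ESC mean, and the difference was -0.56 ± 0.14 (SE; adjusted p = 0.00916) on the log2(RPM + 1) scale, -0.88 relative to the median of all genes, -0.44 without ESC replicate 3, and -0.40 ± 0.10 (SE; adjusted p = 0.00971) on the log2(RPKM + 1) scale. Its size depended on scaling: with RPKM of all samples rescaled to the same sum it was -0.14 and not called, and on the log2(RPM + 1) scale it was -0.85 after scaling by median ratios and -0.95 after quantile normalization.

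Cldn6, a claudin known from embryonic epithelia and pluripotent cells, measured 13.8, 15.2 and 18.04 RPM in the ESC replicates and 45.8, 50.1 and 48.3 RPM in the NPC replicates. Every NPC sample exceeded every ESC sample by more than 2.5 times, 3.06-fold at the means. Its difference was 1.56 ± 0.13 (SE; adjusted p = 3.56e-05) on the log2(RPM + 1) scale, 1.66 without ESC replicate 3, and 1.45 ± 0.11 (SE; adjusted p = 3.49e-05) on the log2(RPKM + 1) scale. Cldn7, a claudin of many simple epithelia that binds EpCAM, measured 6.26, 7.24 and 12.4 RPM in the ESC replicates and 9.22, 9.03 and 9.63 RPM in the NPC replicates. ESC replicate 3 was the highest of all samples and the other ESC replicates were the lowest, so the groups overlapped. The difference was 0.15 ± 0.23 (SE; adjusted p = 0.583) on the log2(RPM + 1) scale, with a 95% interval of -0.40 to 0.70, and 0.11 ± 0.19 (SE; adjusted p = 0.613) on the log2(RPKM + 1) scale. Relative to the median of all genes the log2(RPM + 1) difference was -0.17. The result depended on ESC replicate 3 and on scaling. Without ESC replicate 3 it was 0.41 on the log2(RPM + 1) scale and called higher in NPCs, in a fit that called 89.2% of all genes. On that scale its sign was negative after scaling by median ratios (-0.12), and after quantile normalization it was -0.78 and called lower. With RPKM of all samples rescaled to the same sum it was 0.58 and called higher.

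Vim, which encodes the main intermediate filament protein of mesenchymal cells and also of radial glia, was high in both cell types. It measured 314, 333 and 408 RPM in ESC replicates 1, 2 and 3 and 392, 391 and 434 RPM in NPC replicates 1, 2 and 3. ESC replicate 3 lay among the NPC samples, and ESC replicates 1 and 2 were below them. The difference was 0.21 ± 0.14 (SE; adjusted p = 0.213) on the log2(RPM + 1) scale, with a 95% interval of -0.13 to 0.55, and 0.21 ± 0.13 (SE; adjusted p = 0.204) on the log2(RPKM + 1) scale. Relative to the median of all genes it was -0.11. Without ESC replicate 3 it was 0.32 and called on the log2(RPM + 1) scale, in a fit that called 89.2% of all genes and whose median was 0.22. On that scale it was 0.37 and called after quantile normalization, and -0.08 after scaling by median ratios. With RPKM of all samples rescaled to the same sum it was 0.64 and called, and after quantile normalization of RPKM 0.69 and called.

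**Figure D3:**
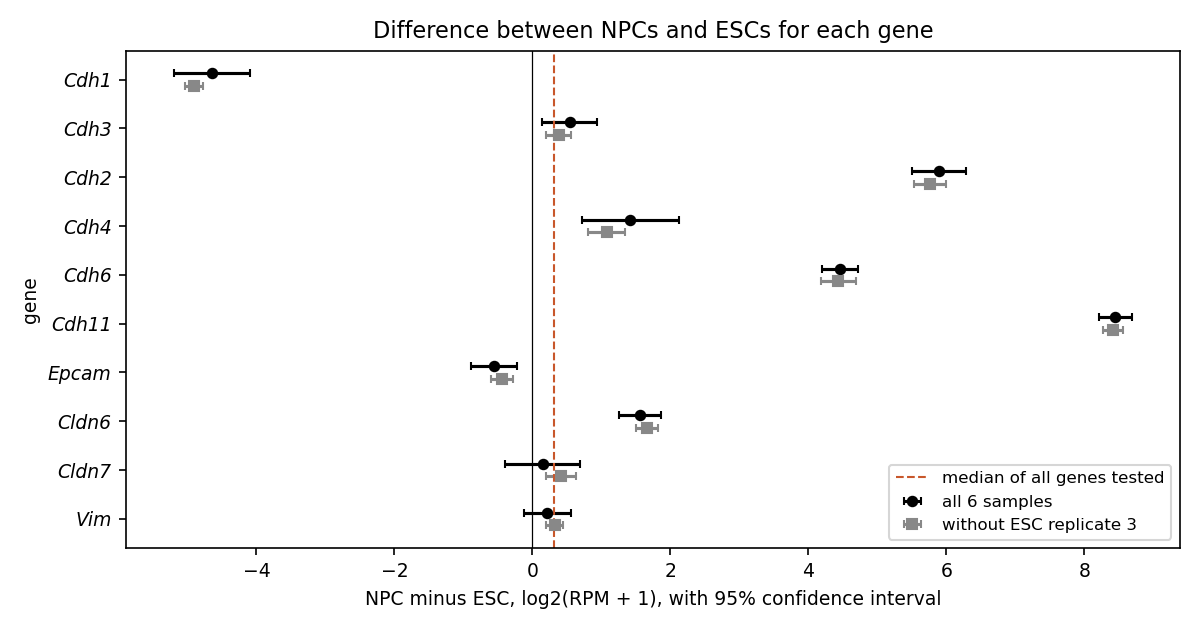
Difference between NPCs and ESCs for each of the 10 genes on the log2(RPM + 1) scale with its 95% confidence interval from limma, for all 6 samples (black) and without ESC replicate 3 (grey); the dashed line is the median of all genes tested, 0.32. Cdh1 and Epcam lie below 0, Cdh2, Cdh6 and Cdh11 above 4, and the intervals of Cldn7 and Vim with all 6 samples include 0.

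Of 15 cadherin partners in the tables, which include the catenins that connect cadherins to actin, 14 were tested on the RPM scale. In NPCs 5 were higher (35.7%, against 45.4% of all genes) and 3 lower (21.4%, against 28.5%), with a median of 0.42. Without ESC replicate 3 and after scaling by median ratios 5 were lower, and after quantile normalization 3 were higher and 5 lower. Lower calls over all 13422 genes also rose under these settings, from 3828 to 5040, 4782 and 5515, in that order. Higher calls over all genes went from 6089 to 4653 after quantile normalization. Ctnnb1, which encodes β-catenin and led the list in both cell types, rose by 1.00 (adjusted p = 0.00238) on the log2(RPKM + 1) scale, from 108 ± 23.8 to 218 ± 13.8 exon RPKM (SD, n = 3). Jup, which encodes γ-catenin, a component of adherens junctions and desmosomes, fell by 1.15 (adjusted p = 3.41e-04), and Arvcf, a relative of p120 catenin, fell by 0.45 (adjusted p = 0.00452) but was not called after rescaling all samples to the same sum.

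Of 34 genes of claudins and tight junctions, 20 were tested on the RPM scale, with 13 higher (65.0%, against 45.4% of all genes), 4 lower (20.0%, against 28.5%) and a median of 1.00. After quantile normalization 9 were higher and 9 lower, where 4653 of all 13422 genes were higher and 5515 lower. Cldn5, the claudin best known from endothelium, rose by 3.27 (adjusted p = 8.27e-07) on the log2(RPKM + 1) scale, and Cldn6 was the next by rise. Cldn4, an epithelial claudin and the leading claudin of ESCs by exon RPKM (65.3 ± 7.04), fell by 1.68 (adjusted p = 2.46e-05) to 19.7 ± 0.809 in NPCs, and the apical polarity gene Crb3 fell by 1.02 (adjusted p = 0.00164). Cldn4 and Cldn6 thus moved in opposite directions, and Cldn6 was the claudin with the highest exon RPKM in NPCs. Among 13 desmosome genes, 6 were tested on the RPM scale, with 3 higher (50.0%, against 45.4% of all genes) and 2 lower (33.3%, against 28.5%; 1 lower when a sample other than ESC replicate 3 was left out). Dsp, which encodes desmoplakin, rose by 2.27 (adjusted p = 1.35e-06) and the desmosomal cadherin gene Dsc2 by 1.78 (adjusted p = 3.05e-07) on the log2(RPKM + 1) scale, whereas Dsg2, the leading desmosomal gene of ESCs, had 9.74 ± 4.73 exon RPKM in ESCs and 3.56 ± 0.245 in NPCs (SD, n = 3).

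Of 23 genes of the epithelial programme, 21 were tested on the RPM scale, 7 were higher in NPCs (33.3%, against 45.4% of all genes) and 10 lower (47.6%, against 28.5%), with a median of -0.56 against 0.32 for all genes. After quantile normalization 4 were higher and 15 lower. All 13422 genes shifted the same way, from 6089 higher and 3828 lower to 4653 higher and 5515 lower. The largest falls on the log2(RPKM + 1) scale were those of Elf3, an epithelial transcription factor (-2.65, adjusted p = 9.06e-06), and Spint1, an inhibitor of membrane serine proteases (-1.93, adjusted p = 1.38e-06). The largest rises were those of the simple-epithelial keratin genes Krt18 (4.41, adjusted p = 5.58e-07) and Krt19 (2.84, adjusted p = 1.38e-06). Cd24a, a surface protein of epithelial and neural precursor cells, had the highest level of the list in NPCs, 145 ± 4.31 exon RPKM (SD, n = 3). Lower Cdh1 was therefore accompanied by lower Elf3 and Spint1 and by higher keratin transcripts in the same samples.

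Transcription factors of epithelial-mesenchymal transition (EMT) include several that are known to bind E-box motifs and repress Cdh1. Of 11 genes, 10 were tested on the RPM scale and all 10 were called higher in NPCs, against 45.4% of all genes, with a median of 3.62. After scaling by median ratios 8 were called higher, where 5316 of all 13422 genes were, and without a filter 1 of the list was called lower. On the RPKM scale 5 of 5 were called higher, against 36.9% of all genes. Foxc2 rose by 4.68 (adjusted p = 2.82e-07) and Twist1 by 4.44 (adjusted p = 2.16e-07) on the log2(RPKM + 1) scale. Tcf3, an E protein that led the list in both cell types by exon RPKM, had 58.8 ± 5.72 in ESCs and 87.9 ± 10.3 in NPCs (SD, n = 3) and was not called after scaling by median ratios. Snai1, a zinc finger repressor chosen after its values were seen, measured 3.73, 3.68 and 3.70 RPM in the ESC replicates and 33.2, 44.2 and 47.9 RPM in the NPC replicates, without overlap. Whether any of these factors acts on the cadherin genes here was not tested.

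Of 20 mesenchymal and intermediate filament genes, 17 were tested on the RPM scale, 13 were higher in NPCs (76.5%, against 45.4% of all genes) and none lower (against 28.5%). Without ESC replicate 3, after scaling by median ratios and after quantile normalization 1 was lower, where 5040, 4782 and 5515 of all 13422 genes were lower. Mmp2, a gelatinase, rose by 3.42 (adjusted p = 1.86e-07) and Nes, the neural progenitor filament nestin, by 2.83 (adjusted p = 7.16e-07) on the log2(RPKM + 1) scale. Fn1, which encodes fibronectin and had the highest exon RPKM of the list in ESCs, was chosen after its values were seen and measured 2341, 2337 and 701 RPM in the ESC replicates and 799, 801 and 815 RPM in the NPC replicates. ESC replicate 3 alone lay with the NPCs, and the difference was -0.96 ± 0.47 (SE; adjusted p = 0.103) on the log2(RPM + 1) scale, and -1.54 and called lower without ESC replicate 3.

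Markers of cell types were measured beside these genes, because the labels describe the differentiated cells as neural progenitors. Their counts stand against 45.4% of all genes called higher and 28.5% called lower on the RPM scale, and 36.9% and 33.3% on the RPKM scale. All 8 markers of embryonic stem cells were lower in NPCs on both scales, and their summed exon RPKM was 1481, 1490.1 and 1622 in the ESC replicates and 12.6, 13.7 and 15.4 in the NPC replicates. Pou5f1, the most abundant in ESCs, fell from 329.8 ± 84.9 to 0.112 ± 0.0285 exon RPKM (SD, n = 3), and Sox2, which neural progenitors also express, was the highest of these in NPCs at 8.43 ± 1.55. All 9 markers of neural progenitors were higher in NPCs on the RPM scale, with sums of 16.5, 15.8 and 13.8 in ESCs and 105, 119 and 119 in NPCs, where Nes led. Of 8 neuronal markers 6 were higher and 2 lower in NPCs on the RPM scale, and on the RPKM scale 2 were tested and both were lower. With RPKM of all samples rescaled to the same sum, 1 was lower. Their summed exon RPKM was 80.8, 86.7 and 106 in the ESC replicates and 48.0, 39.5 and 45.9 in the NPC replicates, and Tubb3, the most abundant in NPCs, had 23.5 ± 2.88 exon RPKM there against 41.3 ± 4.33 in ESCs.

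Markers of other lineages were also present in the NPC samples, and their counts on the RPM scale stand against the same 45.4% of all genes called higher and 28.5% called lower. Markers absent or nearly absent from ESCs could be tested only through NPCs, so these counts favour rises. Of 10 markers of mesoderm and mesenchyme, 9 were higher and 1 (T) lower in NPCs on the RPM scale, and their summed exon RPKM was 4.35, 4.56 and 3.72 in the ESC replicates and 267, 279 and 268 in the NPC replicates, a larger sum in every NPC sample than that of the neural progenitor markers. Col3a1, a fibrillar collagen, was the most abundant at 79.2 ± 2.94 exon RPKM, and Foxf1, a factor of lateral mesoderm that led the list in deposited RPKM, had 41.6 ± 4.14 and was listed at 0 in all ESC samples. The 10 endoderm markers summed to 0.960, 1.14 and 0.798 in ESCs and 153, 159.6 and 161 in NPCs, with 8 of 8 tested genes higher, Gata4 as the most abundant (110.0 ± 1.97), Gata6, which led in deposited RPKM, at 34.5 ± 1.74, Apoa1, which led in ESCs in deposited RPKM, at 0.0932 there and 2.13 ± 0.0900 in NPCs, and Afp at 0.117. Most of the NPC sum of this list thus came from Gata4 and Gata6. The 6 endothelial markers, Cdh5 among them, summed to 23.4, 22.6 and 16.98 in ESCs and 52.4, 48.1 and 46.2 in NPCs, with 4 higher and 1 lower. Without ESC replicate 3, after scaling by median ratios and after quantile normalization 2 were lower, where 5040, 4782 and 5515 of all 13422 genes were lower. Kdr was the most abundant in NPCs and Pecam1 in ESCs. The 8 neural crest markers summed to 15.9, 16.0 and 11.2 and 44.5, 42.0 and 41.1, with 5 of 7 tested genes higher and 2 lower (28.6%), Foxd3 as the most abundant in ESCs (7.65 ± 0.491), Ets1 in NPCs, Sox9, which led there in deposited RPKM, at 13.9 ± 0.628, and Sox10 at 0.287. Surface ectoderm markers summed to 31.2, 33.8 and 39.5 in ESCs and 8.80, 7.83 and 6.76 in NPCs, with 3 higher and 3 lower, Sfn as the leading gene in ESCs, Krt15 in NPCs, and Trp63 and Krt5 at 0.0492 and 0.0688 in NPCs. The part of such cells in the levels of Cdh11, Cdh5, Cdh6, Vim and the epithelial genes of the NPC samples was not tested. Some genes stand on several of these lists, such as Nes, Twist1, Snai2 and Cdh5, and vimentin, Cdh2 and Cdh11 are known from neural as well as mesenchymal cells.

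The genes most like Cdh1 and Cdh2 over the 6 samples were found by the Euclidean distance between profiles after subtracting the mean of each gene. On the log2(RPKM + 1) scale, with 7835 tested genes, the nearest to Cdh1 were AU018091 (0.287), Ly6g6e (0.384) and Tmem8 (0.425), and the nearest to Cdh2, which was itself not among the tested genes, were Fam69b (0.0633), Spg21 (0.0766) and Tmem237 (0.0769). The low RPKM of Cdh2 compresses its profile there, so its neighbours differed by less than 1 on that scale. On the log2(RPM + 1) scale, with 13422 tested genes and chosen after seeing the data, the nearest to Cdh1 were Zfp600 (0.167), Cbx7 (0.215) and Tfap2c (0.308), and the nearest to Cdh2 were Mfap4 (0.203), Gfra1 (0.224) and Podxl (0.231). None of the 3 nearest genes was shared between the scales.

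The NAD lists, each made from domains common to 2 Nucleolar-DamID experiments, were set against the positions of the 10 genes on GRCm38. Unlike the RNAseq samples, these experiments used cells with a transgene for H2B-Dam or H2B-Dam-NoLS (with a nucleolar localization signal), switched on over 15 h by doxycycline (100 ng/ml) together with Shield1 (1 µM). In ESCs 2 of the 10 genes overlapped a NAD: Vim (chr2:13573927-13582826) lay inside one, and 50.2% of Cdh2, without its start, lay in another. In NPCs 5 of 10 did, Vim, Cdh2, Cdh11, Cdh3 and Cdh1, each over its whole length. Over all genes of the RNAseq tables with a position, 27.1% overlapped a NAD of ESCs and 21.6% one of NPCs. The 3 genes inside NADs only in NPCs are all on chromosome 8, of which NADs covered 19.5% in ESCs and 77.6% in NPCs, against 30.1% and 27.6% of all chromosomes with NADs. Their overlap is therefore that of most of the chromosome.

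Cdh1 (chr8:106603351-106670246) and Cdh3 (chr8:106510891-106557297) lay in the same NPC NAD (chr8:106299897-108800017, score 0.0864, rank 102 of 1447). Cdh1 was lower in NPCs and Cdh3 slightly higher. Cdh11 (chr8:102632095-102785642), the gene with the largest rise, lay in an NPC NAD of 8.40 Mb (chr8:95398249-103799648, score 0.0767), and in ESCs, where it was almost silent, the nearest NAD was 15.2 kb away. Cdh2 was inside a NAD of 1.90 Mb in NPCs, where it was high. Cdh4, Cdh6, Epcam, Cldn6 and Cldn7 were outside the NADs of both cell types, at 179.5 kb (Cldn6) or more. The lists carry 1 score per NAD and no replicate values, so these overlaps have no error.

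**Figure D4:**
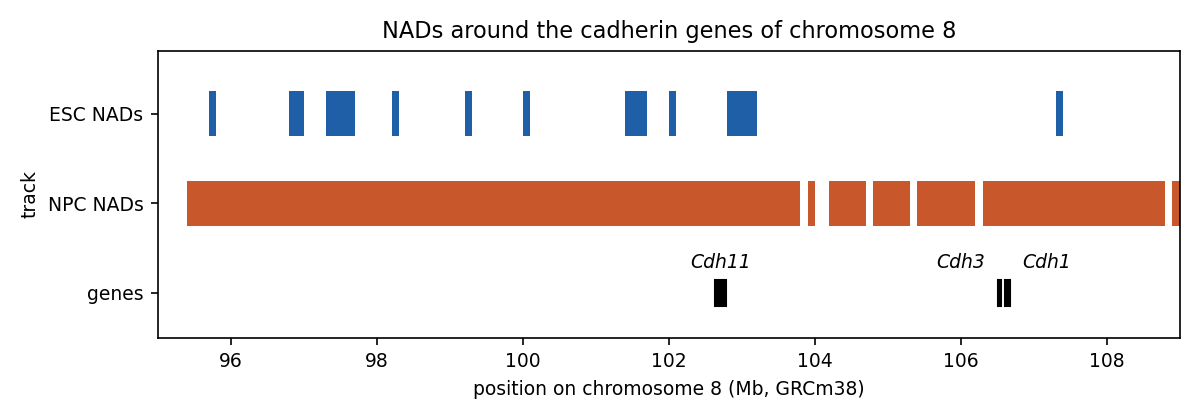
Position of Cdh11, Cdh3 and Cdh1 (black) on chromosome 8 of GRCm38 in Mb, with the NADs of ESCs (blue) and NPCs (orange) as bars to scale. The genes lie outside the ESC NADs and inside the NPC NADs.

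Promoter sequences were examined for the E-box that Snail and ZEB factors are known to bind, CAGGTG, which reads CACCTG on the other strand. No promoter window of Cdh1, Cdh2, Cdh3, Cdh4 or Cdh11 was examined. RefSeq promoter windows (GRCm38.p6) were examined for the other 5 of the 10 genes, Epcam, Cldn6, Cldn7, Cdh6 and Vim. In these windows of 250 bases, Epcam held 2 E-boxes, 187 and 19 bases before the start of the gene, and Cdh6 held none before its start. The window of Vim, which lies inside the gene as annotated in GENCODE, held none, and that of Cldn6, which runs past the annotated start, held 1 within the gene. Cldn7 has a pair of windows, of which the outer, before the annotated start, held none and the inner, within the gene, held 2. Of all 32851 windows of this length, 17.2% held at least 1 match and 2.06% held 2 or more. The windows of Epcam (chr17:87635729-87635978, plus strand), which fell in NPCs, and the outer window of Cldn7 (chr11:69964529-69964778, plus strand), which was not called, are given 5′ to 3′, with the E-boxes of Epcam in capitals. A match is a description of the sequence and says nothing of binding in these cells.
Epcam: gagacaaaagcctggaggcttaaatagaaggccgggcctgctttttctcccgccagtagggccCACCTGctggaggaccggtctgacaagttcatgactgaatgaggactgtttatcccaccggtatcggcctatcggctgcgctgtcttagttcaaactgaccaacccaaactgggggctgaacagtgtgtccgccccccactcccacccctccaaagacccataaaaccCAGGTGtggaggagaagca
Cldn7: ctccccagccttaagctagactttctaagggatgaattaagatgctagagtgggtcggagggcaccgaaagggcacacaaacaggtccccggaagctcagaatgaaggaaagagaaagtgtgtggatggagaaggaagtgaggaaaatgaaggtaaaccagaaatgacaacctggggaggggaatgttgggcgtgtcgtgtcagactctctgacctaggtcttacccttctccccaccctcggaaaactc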

How the data were processed

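RNAseq was measured in 3 ESC and 3 NPC samples. The authors removed rRNA reads, trimmed and aligned the reads to mm10 and deposited RPKM per gene, computed in each sample on its own, in separate tables for ESCs and NPCs. The aligner is named differently in the methods and in the submitters' processing notes, and the use of strand in counting is not given in the sources used here. No annotated exon of another gene overlapped exons of the 10 genes. The deposited NAD score comes from the authors' domain calls and was only ranked.

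Low RPKM values times the gene span of GENCODE M21 were whole multiples of 1 value per sample: of 3195 to 3642 values of up to 20 reads per sample, 97.4% to 97.8% were whole within 0.1, which gave depth and read estimates. Those of Cldn6 lay up to 0.258 from whole and are approximate. RPM and exon RPKM were computed from the deposited RPKM and GENCODE M21 lengths.

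For the tests of differences, lmFit and trended eBayes of limma 3.58.1 (R 4.3.3) were run on log2(RPKM + 1) for 7835 genes with at least 1 RPKM in at least 3 samples, and on log2(RPM + 1) for 13422 genes, after the code had been tested on simulated data. Tables were computed in Python 3.11.15 (pandas 2.3.3, numpy 2.4.6), exact intervals with scipy 1.17.1 and figures with matplotlib 3.10.9. Symbols on more than 1 line (153 of 21909) were represented by the line with the highest mean. Replicate numbers did not pair samples, so no block was used. Alternatives were other pseudocounts, filters, scalings and prior variances, a replicate block, each sample left out in turn and other NAD overlap rules; the RPM and exon scales were added after seeing the data.

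Members and lists were chosen with earlier results of these data known. Named were all 10 members, in each list up to 2 risers and 2 fallers, by size of difference among called genes, and the gene with the highest mean RPKM in each cell type (marker lists: the latter only), and the 3 genes most like Cdh1 and Cdh2. Genes named by their exon RPKM or RPM, as defining markers or otherwise were chosen after their values were seen.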

Additional observations from a re-analysis of the deposited data

How the results depend on the processing

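Alternatives were run for the differences of the 10 genes. On the log2(RPM + 1) scale, 116 of 130 alternative values kept direction and side of the threshold, and most did on the log2(RPKM + 1) scale. All values of Cdh1, Cdh11 and Cldn6 did so on both scales. Those of Cdh2 and Cdh6 did so on the log2(RPM + 1) scale, the only one with a main result for them. Scaling by median ratios gave Cdh3 0.26 (RPM, call lost), Cldn7 -0.11 (RPKM) and -0.12 (RPM), and Vim -0.0792 (RPKM) and -0.0789 (RPM), with the sign turned. Rescaling RPKM to the same sum per sample gave Epcam -0.14 (call lost), Cldn7 0.58 and Vim 0.64 (both called). Quantile normalization gave Vim 0.69 (RPKM) and 0.37 (RPM, both called), Cldn7 -0.78 (RPM, called lower), Cdh3 0.10 and Cdh4 0.27 (RPM, calls lost). Leaving out each sample moved Cldn7 from -0.0328 to 0.33 (RPKM) and from -0.0323 to 0.41 (RPM), Vim from 0.13 to 0.32 (RPKM) and 0.14 to 0.32 (RPM), and Cdh3 from 0.38 to 0.64 (RPM). Without ESC replicate 3, Cldn7 was 0.33 (RPKM) and 0.41 (RPM) and Vim 0.32 on both scales, all called. The causes were not tested.

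Replicate numbers did not pair the samples: the correlations of deviations between samples of the same number were 0.0922, -0.101 and -0.000768, and not every sample was closest to its own number. With a replicate block 5214 genes were called in place of 5500 (RPKM) and 9530 in place of 9917 (RPM), and of the 10 genes only Cdh3 (0.54) lost its call.

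Without a filter, 11454 genes were called on the RPKM scale, 7245 higher and 4209 lower, since more genes were tested. Rescaling to the same sum left 1585 lower. Requiring a difference of at least 1 left 2246 (RPKM) and 6571 (RPM). Without ESC replicate 3, 6884 and 11970 genes were called. The mean log2 ratio of Cdh2 to Cdh1 was -3.62 in ESCs and 0.28 in NPCs with 1 RPKM added, -4.55 and 0.41 with 0.5, -6.73 and 0.65 with 0.1, and -9.55 and 1.66 per exon length. From RPKM to exon RPKM the mean share of Cdh1 went from 89.4% to 95.3% in ESCs and from 5.58% to 6.18% in NPCs, that of Cdh2 from 0.0640% to 0.127% and from 9.49% to 19.6%, and that of Cdh11 from 0.00578% to 0.00726% and from 32.0% to 41.8%. Of 2 genes in ESC NADs, 1 remained by transcription start and 1 when NADs with scores under the median were dropped, and of 5 in NPC NADs, 3 remained with the latter.

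The 3 samples per group came from separate dishes of a single line. Depth limits the ESC levels of Cdh2, Cdh4, Cdh6 and Cdh11, which rest on 0 to 113 estimated reads per sample. Levels across the separate tables assume that RPKM was computed alike in both.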
